A study of Mus musculus with 4 samples.

Results

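The genes described here are 31 named enzymes and carriers of fatty acid uptake and beta-oxidation, measured in mouse heart RNA. They were taken by name, and each was represented by the probe set with that symbol alone and the highest mean log2 value over the 4 arrays. Of the 31, 30 had such a probe set, among 18193 genes that had one. Cpt1b, the muscle form of the outer-membrane carnitine palmitoyltransferase, was the exception: its probe set also carried other gene symbols, so no value is given for it.

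The series asked how Sirt1, an NAD-dependent protein deacetylase, regulates genes in the heart. Affymetrix Mouse Genome arrays were hybridised with total RNA from snap-frozen hearts, per the labels of 4 mice killed with pentobarbital (120 mg/kg). The label NTg stands for wild type mice (n = 2, NTg 1 and NTg 2) and Tg-Sirt1 for mice with a Sirt1 transgene (n = 2, Tg-Sirt1 1 and Tg-Sirt1 2). The sources used here give no strain, age or sex, and neither the promoter that drives the transgene nor the number of transgenic lines. Groups of 4 values are listed in the order NTg 1, NTg 2, Tg-Sirt1 1, Tg-Sirt1 2.

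The heart draws most of its energy from long-chain fatty acids. They cross the cell membrane through Cd36 and fatty acid transport proteins, bind the fatty acid binding protein Fabp3, and enter mitochondria as carnitine esters. Inside, a chain of dehydrogenases, hydratases and thiolases shortens the acyl chain by acetyl units and hands electrons to the electron transfer flavoprotein. Peroxisomes hold a parallel set of enzymes. Many of these genes are known targets of PPAR-alpha and of the ERR receptors with their PGC-1 coactivators.

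The arrays NTg 1 and the one labelled Tg-Sirt1 1 were near-identical, which bears on every value that follows. Over 45037 probe sets their differences had an SD of 0.0759 log2 units and were at most 0.48, whereas the SD was 0.342 to 0.405 in the other 5 pairs of arrays. Over the 30 measured members the pair differed by at most 0.03 log2 units. Sirt1 itself read 7.30, 7.17, 7.16 and 7.93. The Sirt1 level was thus high on Tg-Sirt1 2 alone, and what part of the transcript this probe set covers was not determined. On the array labelled Tg-Sirt1 1 it was below both NTg arrays. The files do not settle whether 1 hybridisation was deposited under both labels, so it is not known that the arrays stand for 4 separate mice. Each n = 2, SD, SE, p and difference between the labels is given as labelled and holds only if they do. No array was moved to another label. The difference between the labels is therefore close to the difference between Tg-Sirt1 2 and NTg 2 spread over 2 arrays, and those arrays are also given separately against the mean of the near-identical pair. Heart muscle was well represented, with the 10 cardiomyocyte markers between 12.24 and 14.15 log2 units on the 4 arrays.

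Between the labels, 23 of the 30 members (76.7%) had a lower mean in Tg-Sirt1, against 45.8% of all genes. Their median log2 fold change, the Tg-Sirt1 mean minus the NTg mean, was -0.11, beside 0.015 over all genes. The values ran from -0.42 for the thioesterase gene Acot2 to 0.15 for Acot13. None of the members passed the test, but the test could hardly call any gene here. With 1 near-identical array in each label, NTg 2 and Tg-Sirt1 2 set both the difference between the labels and the spread within them. The absence of calls therefore does not show that the members are unchanged. In limma 0 of 30 had an adjusted p under 0.05, as did 0% of all genes, and 0 had an unadjusted p under 0.05, against 0.055% of all genes (10 of 18193). In whole tissue, fewer cells of a type and less RNA per cell cannot be told apart. Without NTg 2 the median was -0.02 with 17 of 30 members lower, beside 0.02 and 41.89% over all genes. Without Tg-Sirt1 2 it was -0.035 with 17 lower, beside 0.005 and 47.27%. Both Tg-Sirt1 arrays lay below both NTg arrays for 3 members (Cd36, Acadm and Mlycd), and 9.3% of all genes did so. They lay above for 1 member, Acot13, as for 11.4% of all genes. For Cd36, Acadm and Mlycd this separation includes a gap of only 0.01 to 0.03 within the near-identical pair.

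**Figure D1:**
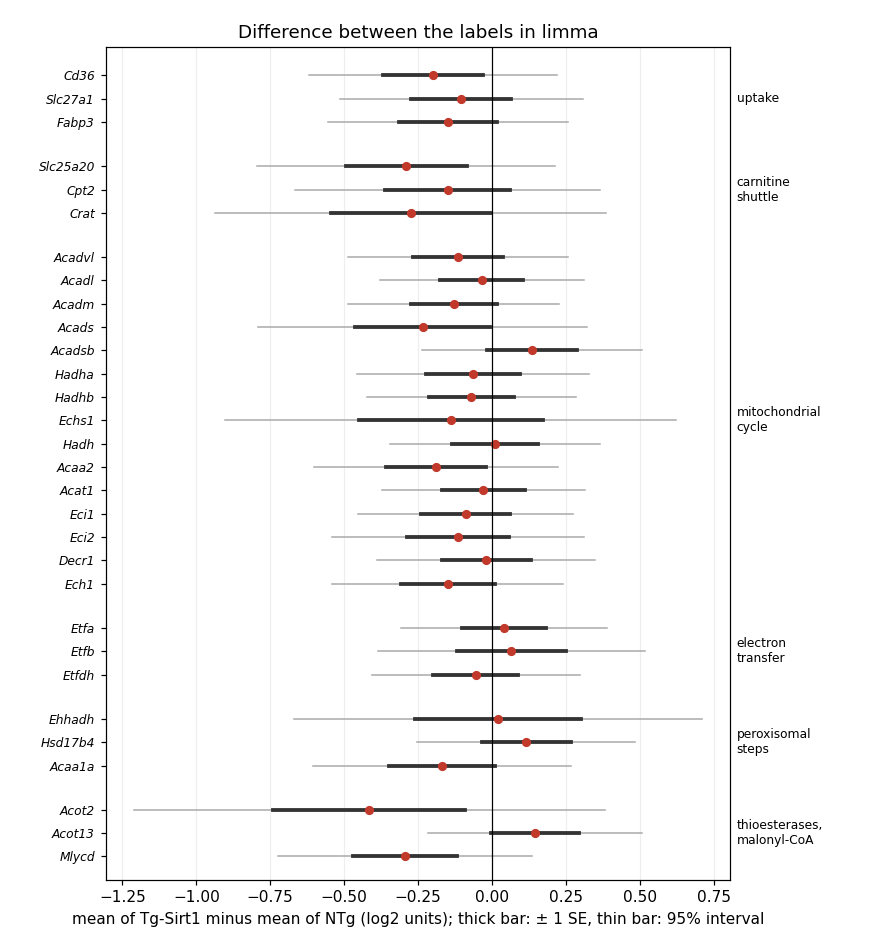
Log2 fold change of the 30 members (Tg-Sirt1 mean minus NTg mean, 2 arrays each) with its standard error as a thick bar and its 95% confidence interval as a thin bar, ordered by step. Most points lie left of 0, and every interval spans 0.

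Among the single arrays, NTg 2 was the highest of the 4 for 15 of the 30 members, against 34.3% of all genes. Tg-Sirt1 2 was the lowest for 15 of the 30, against 23.2% of all genes. Both counts depended on the scaling: after a second quantile normalization they were 23 and 13, and with each array centred on its median 12 and 11. Over all genes the same shares were 35.9% and 23.2%, and 25.0% and 18.5%. Against the mean of the near-identical pair, the members had a median difference of 0.078 on NTg 2 and -0.032 on Tg-Sirt1 2. The second quantile normalization made these 0.224 and 0.037, and centring 0.012 and -0.017. Over all genes these medians were -0.005 and 0.04 as deposited. They were 0.029 and 0.064 after the second quantile normalization, and -0.07 and 0.055 with centring.

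**Figure D2:**
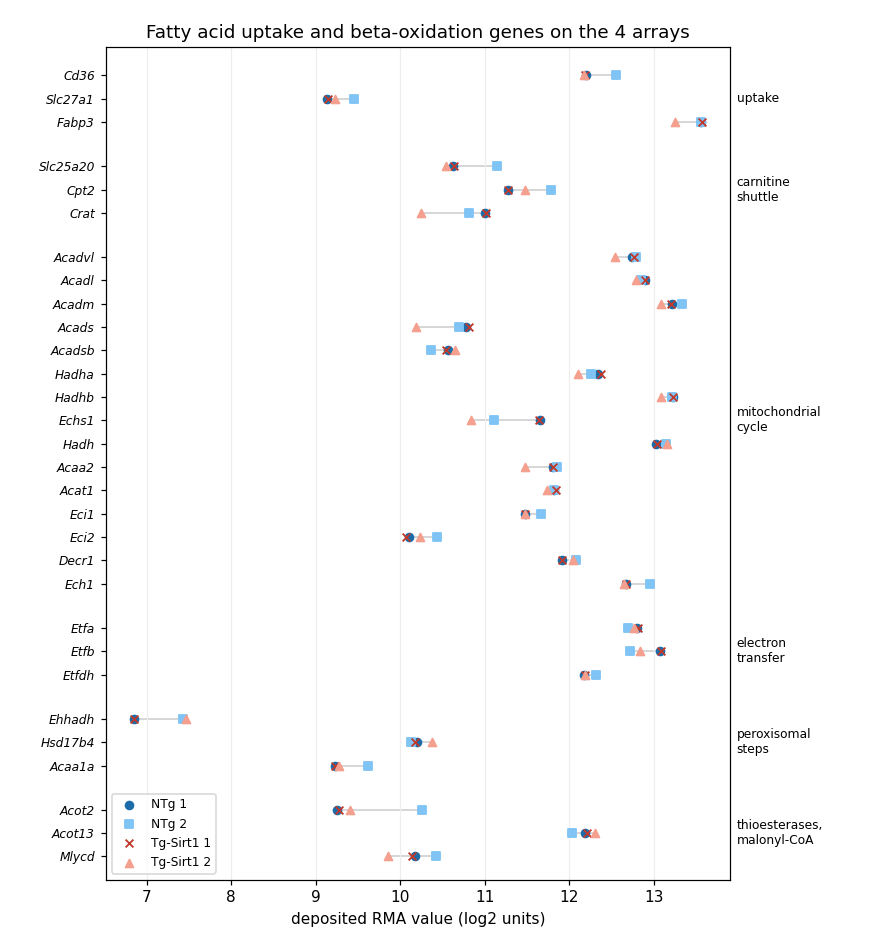
Deposited log2 values of the 30 members on the 4 arrays, grouped by step. Circles and crosses, the arrays NTg 1 and Tg-Sirt1 1, coincide for every member, and the spread of each row comes from NTg 2 (squares) and Tg-Sirt1 2 (light triangles).

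A difference of at least 0.5 log2 units from the pair was reached on NTg 2 by 4 members above it, Acot2, Ehhadh, Slc25a20 and Cpt2, where 3.75% of all genes lay that far above. Echs1 was the only member that far below it, as were 8.89% of all genes. On Tg-Sirt1 2 the only member that far above was Ehhadh (3.18% of all genes), and Echs1, Crat and Acads were that far below (3.55%). These are differences of single arrays and carry no test. After the second quantile normalization the NTg 2 counts were 9 above and 0 below, and the Tg-Sirt1 2 counts 1 and 3. With centring they were 2 and 1 on NTg 2, and 1 and 3 on Tg-Sirt1 2. Over all 18193 genes, the second quantile normalization gave 870 above and 920 below on NTg 2, and 702 and 548 on Tg-Sirt1 2. Centring gave 430 and 2148 on NTg 2, and 655 and 605 on Tg-Sirt1 2.

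**Figure D3:**
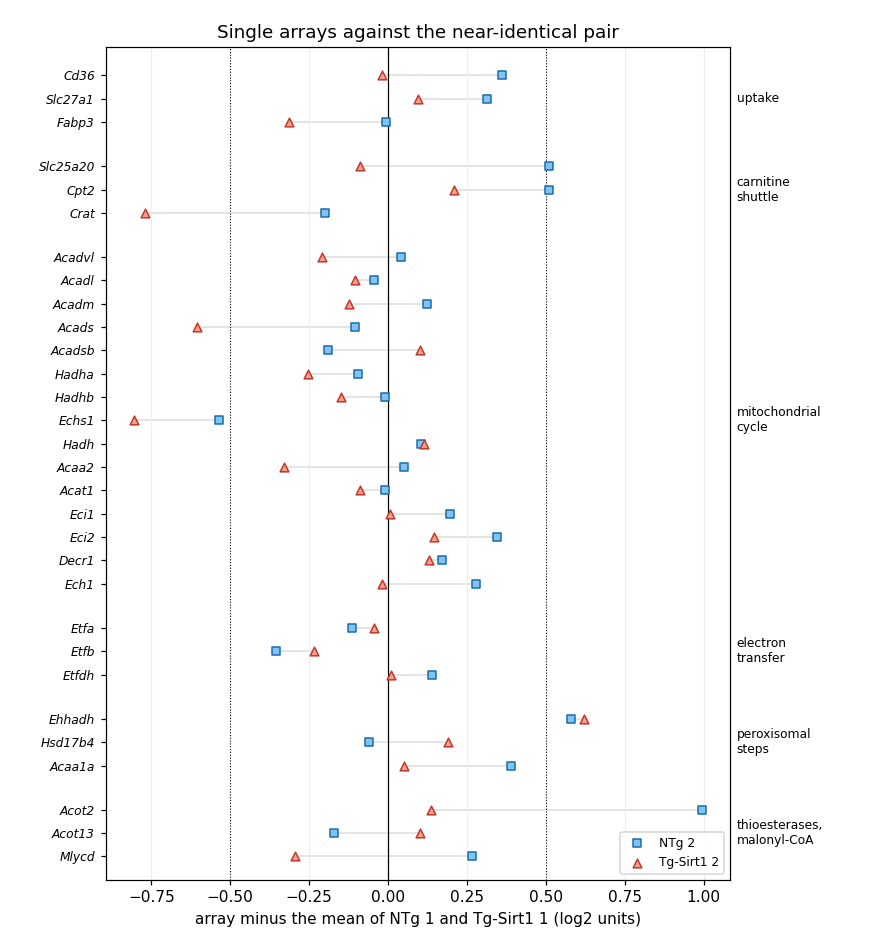
Value on NTg 2 (squares) and on Tg-Sirt1 2 (triangles) minus the mean of NTg 1 and Tg-Sirt1 1, in log2 units, for the 30 members. Acot2, Slc25a20 and Cpt2 stand out on NTg 2, Crat and Acads on Tg-Sirt1 2, and Echs1 and Ehhadh on both; dotted lines mark 0.5 in each direction.

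The uptake genes were high on NTg 2 for the membrane proteins but not for the cytosolic carrier. Cd36, the scavenger receptor that takes up long-chain fatty acids, read 12.20, 12.55, 12.18 and 12.17. NTg 2 stood 0.36 above the pair, while Tg-Sirt1 2 lay with it. The log2 fold change was -0.20 ± 0.17 (SE), with a 95% interval from -0.62 to 0.22 (limma adjusted p = 0.994). It was -0.025 without NTg 2 and -0.375 without NTg 1. Both other Cd36 probe sets were also highest on NTg 2, at 12.07 against 11.56 to 11.80 and at 11.34 against 11.03 to 11.18. Slc27a1, a fatty acid transport protein gene, read 9.13, 9.45, 9.14 and 9.23 and, in its other probe set, 8.18 on NTg 2 against 7.59 to 7.86. Fabp3, the heart fatty acid binding protein gene, read 13.56, 13.56, 13.57 and 13.25. Here only Tg-Sirt1 2 stood apart, 0.315 below the pair, while the dim second probe set was highest on NTg 2 (6.96 against 6.53 to 6.71).

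Promoter sequence was available from RefSeq (GRCm38.p6) for 24 of the 31 genes, in 26 windows (3 for Slc27a1) from 250 bases before to 50 bases after a start site. Acaa2, Acat1, Acot13, Cpt1b, Crat, Decr1 and Hsd17b4 were not matched. Nuclear receptors such as PPARs and ERRs bind around the half-site AGGTCA, which was present on either strand in 4 windows, those of Acadm, Acadvl, Cd36 and Echs1 (15.4%, against 16.3% of all 32851 windows). The ERR-type extension TCAAGGTCA, which contains that half-site, was in 0 member windows and in 0.423% of all. PPAR heterodimers bind the direct repeat AGGTCANAGGTCA. With up to 2 mismatches it matched 4 windows, those of Cd36, Echs1, Etfa and Slc25a20 (15.4%, against 3.86% of all). The Echs1 match contains that gene's half-site. The median G and C content was 60.7% in the member windows and 52.7% in all. The Cd36 upstream window, chr5:17835897-17836146 on the minus strand, is shown because it held a half-site and, separate from it, a repeat match. Capitals mark the half-site and the repeat match, both on the opposite strand to the gene.
Cd36: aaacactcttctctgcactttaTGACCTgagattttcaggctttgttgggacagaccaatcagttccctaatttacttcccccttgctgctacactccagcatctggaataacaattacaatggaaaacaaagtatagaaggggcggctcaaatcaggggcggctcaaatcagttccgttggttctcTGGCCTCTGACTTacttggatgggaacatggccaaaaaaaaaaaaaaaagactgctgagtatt

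In the carnitine shuttle, the carrier and the inner-membrane transferase were high on NTg 2. Slc25a20, the carnitine-acylcarnitine translocase gene, read 10.62, 11.14, 10.64 and 10.54. NTg 2 stood 0.51 above the pair and the other 3 arrays lay within 0.10 of each other. Its log2 fold change was -0.29 ± 0.21 (SE; interval -0.79 to 0.21, limma adjusted p = 0.994), and without NTg 2 it was -0.03. A second probe set read 10.19 on NTg 2 against 9.91 to 9.96. Cpt2, which turns acylcarnitines back into acyl-CoA, read 11.27, 11.78, 11.27 and 11.48, and its dim second probe set 6.65 on NTg 2 against 5.90 to 6.13. Tg-Sirt1 2 was thus above the pair in 1 Cpt2 probe set and below it in the other. The repeat match of Slc25a20, AGGTGAAAGGTCG, begins 7 bases into the transcript on the gene's strand. The window before it (chr9:108661886-108662135, plus strand) held neither motif and is printed for comparison with that of Cd36.
Slc25a20: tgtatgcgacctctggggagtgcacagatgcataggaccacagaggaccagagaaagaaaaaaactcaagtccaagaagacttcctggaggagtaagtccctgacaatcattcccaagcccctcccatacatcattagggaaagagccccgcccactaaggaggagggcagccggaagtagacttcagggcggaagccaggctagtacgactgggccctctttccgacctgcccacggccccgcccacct

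Crat, the gene of the carnitine acetyltransferase that acts on short acyl groups, was low on Tg-Sirt1 2 instead. It read 11, 10.81, 11.02 and 10.24, so that Tg-Sirt1 2 lay 0.77 below the pair and NTg 2 0.20 below it. The log2 fold change was -0.275 ± 0.27 (SE; interval -0.94 to 0.39, limma adjusted p = 0.994), and without Tg-Sirt1 2 it was 0.115. Its other probe sets did not share the size of this difference: Tg-Sirt1 2 read 9.82 against 9.91 to 10.13 in one and 7.10 against 6.89 to 7.16 in the other. In both of these NTg 2 was the highest array.

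The acyl-CoA dehydrogenases start each turn of the cycle, and each favours another chain length. Acadvl (very long chains) read 12.74, 12.79, 12.76 and 12.54. Acadl (long chains) read 12.90, 12.85, 12.89 and 12.79. Acadm (medium chains) read 13.21, 13.33, 13.20 and 13.08. For these 3 the arrays lay within 0.25 log2 units of each other, lowest on Tg-Sirt1 2. Acads (short chains) read 10.78, 10.69, 10.81 and 10.19, with Tg-Sirt1 2 lower than the pair by 0.605. Its log2 fold change was -0.235 ± 0.23 (SE; interval -0.79 to 0.32, limma adjusted p = 0.994), and without Tg-Sirt1 2 it was 0.075. It had no second probe set. Acadsb, whose enzyme handles short branched chains from isoleucine, went the other way at 10.56, 10.36, 10.54 and 10.65, lowest on NTg 2 and highest on Tg-Sirt1 2. Its only probe set is of a type that can bind related transcripts, so this value is uncertain.

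Hadha and Hadhb encode the alpha and beta subunits of the mitochondrial trifunctional protein, which carries out the remaining steps on long chains at the inner membrane. Hadha read 12.34, 12.26, 12.37 and 12.10, and Hadhb 13.23, 13.22, 13.23 and 13.08. Both were lowest on Tg-Sirt1 2 by a small margin, with log2 fold changes of -0.065 ± 0.16 and -0.07 ± 0.14 (SE). Another bright Hadhb probe set is of the type that can bind related transcripts. It read 12.32 on NTg 2 and 11.88 on Tg-Sirt1 2, against 12.08 and 12.12 on the pair. A dim one read 8.22 on NTg 2 against 6.44 to 6.86, and its log2 fold change of -0.94 had the lowest unadjusted limma p (0.0927) of the members' other probe sets. The 2 genes lie head to head: 272 bases separate their annotated starts, with Hadha on the minus strand and Hadhb on the plus strand. The part of this shared stretch next to Hadhb (chr5:30155003-30155252, plus strand) held neither motif, so that it has no capitals.
Hadhb: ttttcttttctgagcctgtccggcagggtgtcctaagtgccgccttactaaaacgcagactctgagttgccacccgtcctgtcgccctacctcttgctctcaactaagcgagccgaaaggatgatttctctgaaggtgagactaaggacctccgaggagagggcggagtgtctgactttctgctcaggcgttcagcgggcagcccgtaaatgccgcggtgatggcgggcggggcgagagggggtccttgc

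Short and medium chains pass through separate matrix enzymes. Echs1, the short-chain enoyl-CoA hydratase gene, varied most among these: it read 11.65, 11.11, 11.64 and 10.84. It was the only member at least 0.5 below the pair on both other arrays, so that its difference between the labels was small (-0.14 ± 0.31, SE) and its interval wide (-0.90 to 0.62). It had no second probe set. Its upstream window (chr7:140116422-140116671, minus strand) is shown because its repeat match lies on the gene's strand and includes the half-site; capitals mark the match.
Echs1: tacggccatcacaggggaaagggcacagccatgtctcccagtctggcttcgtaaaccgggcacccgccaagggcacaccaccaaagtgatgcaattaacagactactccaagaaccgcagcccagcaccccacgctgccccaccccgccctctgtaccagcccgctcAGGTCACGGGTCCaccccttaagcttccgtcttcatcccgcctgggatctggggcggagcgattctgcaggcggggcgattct

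Hadh, the 3-hydroxyacyl-CoA dehydrogenase gene, read 13.03, 13.14, 13.04 and 13.15 and spanned 0.12 log2 units over the arrays; its fold change was 0.01, and -0.01 after the second quantile normalization. Its dimmest probe set read 7.01 on Tg-Sirt1 2 against 6.0 to 6.30, a difference that the bright ones did not show. The brightest and the dimmest Hadh probe sets are of the type that can bind related transcripts. Acaa2, the thiolase that releases acetyl-CoA, read 11.81, 11.86, 11.81 and 11.48. All 3 of its probe sets were lowest on Tg-Sirt1 2, at 11.48, 10.94 and 9.37, which differed from the pair by -0.33, -0.13 and -1.185. The direction was thus shared, but its size was not. Acat1, the thiolase of acetoacetyl-CoA and ketone bodies, read 11.82, 11.82, 11.84 and 11.74, whereas its other 2 probe sets were highest on NTg 2 (11.74 against 11.53 to 11.65, and 11.31 against 10.77 to 10.79). Its fold change of -0.03 was 0.005 with each array centred on its median.

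Unsaturated fatty acids need auxiliary enzymes that shift or reduce double bonds, and all 4 of these genes had their highest value on NTg 2. The enoyl-CoA isomerase genes Eci1 and Eci2 read 11.67 and 10.43 there, against 11.47 to 11.48 and 10.07 to 10.23. The dienoyl-CoA isomerase gene Ech1 read 12.95 against 12.65 to 12.67. The dienoyl-CoA reductase gene Decr1 read 12.08 against 11.91 to 12.04, and 10.60 against 10.07 to 10.43 in its second probe set. NTg 2 stood 0.17 to 0.345 above the pair for these 4 genes. Their log2 fold changes ran from -0.02 for Decr1 to -0.15 for Ech1. With each array centred on its median the fold change of Decr1 was 0.015. Over the mitochondrial cycle as a whole, 13 of 15 genes had a lower Tg-Sirt1 mean, with a median of -0.09, beside 45.8% and 0.015 over all genes. Of the 15, 10 were lowest on Tg-Sirt1 2, as were 23.2% of all genes.

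Of the electron transfer genes, 1 of 3 had a lower Tg-Sirt1 mean. Etfa and Etfb encode the flavoprotein that takes electrons from the dehydrogenases. Etfa read 12.80, 12.69, 12.81 and 12.76, and Etfb 13.07, 12.72, 13.08 and 12.84. Both were lowest on NTg 2, and Etfb lay 0.355 below the pair there and 0.235 below it on Tg-Sirt1 2. Etfdh, the gene of the membrane enzyme that passes these electrons to ubiquinone, read 12.17, 12.32, 12.19 and 12.19, highest on NTg 2. The log2 fold changes were 0.04, 0.065 and -0.055, with standard errors of 0.14, 0.18 and 0.14.

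Of the peroxisomal genes, Ehhadh stood apart on both single arrays. It encodes the L-bifunctional enzyme and read 6.85 on both arrays of the pair, 7.43 on NTg 2 and 7.47 on Tg-Sirt1 2. The difference between the labels was therefore near 0 (0.02 ± 0.28, SE), although the 2 arrays of each label lay 0.58 and 0.62 log2 units apart (SD 0.41 and 0.44, n = 2 each). Acaa1a, the peroxisomal thiolase gene, read 9.23, 9.62, 9.23 and 9.28, high on NTg 2. Acaa1a has a close paralog, Acaa1b, and its probe set is of a type that can bind related transcripts, so this value is uncertain. A dimmer Acaa1a probe set of the same type read 6.99 on NTg 2 against 6.80 to 6.86. Hsd17b4, the D-bifunctional enzyme gene, read 10.20, 10.13, 10.18 and 10.38, highest on Tg-Sirt1 2. Its dimmer probe set was instead high on both single arrays (9.20 and 9.14, against 8.83 and 8.77).

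The thioesterases split acyl-CoA into free acid and CoA, and Mlycd removes malonyl-CoA, the inhibitor of carnitine palmitoyltransferase 1. Acot2, the mitochondrial thioesterase gene, read 9.25, 10.26, 9.28 and 9.40. NTg 2 stood 0.995 above the pair, the widest gap among the members' representative probe sets, and the other 3 arrays lay within 0.15. The log2 fold change was -0.415 ± 0.32 (SE; interval -1.21 to 0.38, limma adjusted p = 0.994), and without NTg 2 it was 0.09. A dim second Acot2 probe set read 5.30, 5.58, 5.47 and 4.99, with NTg 2 only 0.195 above the pair and Tg-Sirt1 2 lowest. The paralog of Acot2, the cytosolic form Acot1, had 8.48 on NTg 2 against 6.38 to 6.57. Acot1 and Acot2 are close paralogs that share a probe set annotated to both, so both values are uncertain. Mlycd read 10.17, 10.42, 10.14 and 9.86, high on NTg 2 and low on Tg-Sirt1 2, with the lowest unadjusted limma p of the members (0.143) and a log2 fold change of -0.295 ± 0.175 (SE). That fold change was -0.17 without NTg 2, -0.155 without Tg-Sirt1 2, and -0.42 and -0.435 without NTg 1 or the array labelled Tg-Sirt1 1. Acot13, another mitochondrial thioesterase gene, read 12.19, 12.03, 12.21 and 12.30, with the labels separated in the upward direction by 0.02 within the pair.

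A check across probe sets was possible for 16 members, which had 22 further probe sets. Of these, 19 had the same sign of difference between the labels as the representative and 3, those of Acadl, Etfdh and Hsd17b4, the opposite one. NTg 2 was the highest array in 17 of the 22, against 38.5% of all 45037 probe sets, and Tg-Sirt1 2 the lowest in 11 of 22, against 29.2%. NTg 2 lay above the pair in 20 of the 22 and Tg-Sirt1 2 below it in 11. Over all 18193 genes, each by its representative probe set, NTg 2 lay above the pair for 8938 and Tg-Sirt1 2 below it for 7420. Probe sets of 1 gene share the RNA and the array, and are not replicates. Acaa1a, Acaa2, Cpt2, Crat, Hadh, Hadhb, Hsd17b4 and Slc25a20 each had a further probe set of the type that can bind related transcripts. Those values are uncertain. In limma 0 of the 22 passed an adjusted p of 0.05, and 0 had an unadjusted p under 0.05.

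**Figure D4:**
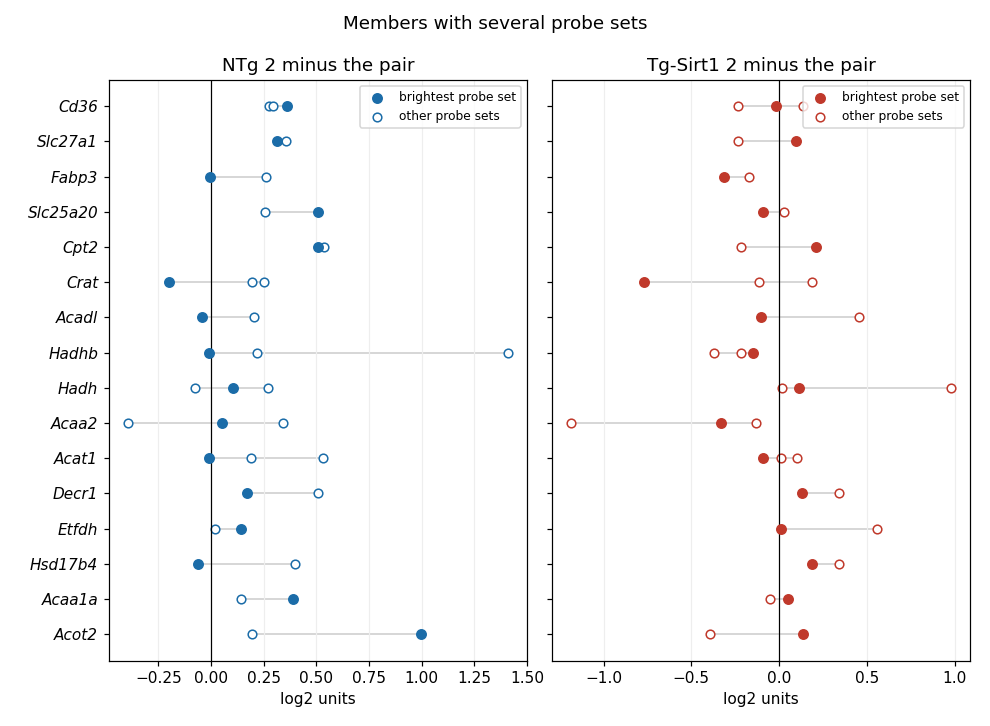
NTg 2 (left) and Tg-Sirt1 2 (right) minus the mean of the near-identical pair, in log2 units, for every probe set of the 16 members with several. On NTg 2 the probe sets of Cd36, Slc27a1, Slc25a20 and Cpt2 all lie right of 0. On Tg-Sirt1 2 those of Acaa2, Hadh and Crat lie furthest apart.

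Other values moved with these arrays. The 3' minus 5' control signal for Gapdh, which is larger where the 5' end is less well represented, was 0.18, 0.69, 0.19 and 1.34 log2 units, and for Actb 1.22, 1.44, 1.25 and 1.92. Both were thus largest on Tg-Sirt1 2, where 15 of the 30 members were lowest and 5 were highest. Of all 18193 genes, 4213 were lowest and 6521 highest on that array. The summed linear value of the 10 cardiomyocyte markers was 127700 to 135400 on the NTg arrays and 122500 to 135100 on the Tg-Sirt1 arrays, and 7 of the 10 were lowest on Tg-Sirt1 2. That of the 8 fibroblast markers was 13440 on NTg 2 and 24320 on NTg 1, against 18220 to 24320 on the Tg-Sirt1 arrays, and 7 of the 8 were lowest on NTg 2. The 8 endothelial markers summed to 5026 to 6732 on the NTg and 5076 to 6718 on the Tg-Sirt1 arrays, low on both single arrays. The 8 adipocyte markers measured summed to 7642 to 8074 and 7363 to 8037. Of these, Ucp1 (6.23 and 5.97, against 7.26 and 7.34), Cidea and Adipoq were low on both single arrays. Retn (7.23 and 6.96, against 6.92 and 6.88) and the dim Lep were higher there. Elovl3 (6.76 and 6.79, against 6.74 and 6.88) and Fabp4 lay near the pair, and Cidec was low on Tg-Sirt1 2 alone. Skeletal muscle markers summed to 11000 to 13420 and 10270 to 13470, and liver markers to 1212 to 1453 and 1241 to 1259. The skeletal muscle sum was mostly Ckm (12.51 to 13.07) and Pygm (11.71 to 12.09), which heart muscle also expresses, while the other 8 markers read 4.17 to 7.15. The adipocyte sum was mostly Fabp4 (12.69 to 12.73), which endothelial cells also express. Neither sum therefore measures skeletal muscle or fat. No marker can be at 0 on this scale, where the lowest skeletal muscle and liver markers read 4.17 and 4.12. The part of these controls and markers in the members' values was not tested.

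Other genes of fatty acid handling were divided between the directions. Of 48 on the list, 42 were measured, of which 20 had a lower and 22 a higher Tg-Sirt1 mean (median log2 fold change 0.03), and 0 passed the limma test in either direction. The lowest unadjusted p values on the higher side belonged to the long-chain acyl-CoA synthetase genes Acsl4, Acsl6 and Acsl3, which were lowest on NTg 2 (6.13, 7.69 and 5.57, against 7.27, 8.76 and 6.95 on NTg 1) and highest on Tg-Sirt1 2 (8.10, 9.15 and 7.35). On the lower side they belonged to Bdh1, a ketone body dehydrogenase gene (11.42 on NTg 2 against 10.84 to 11.03), to Acot1, and to the peroxisomal thioesterase gene Acot8 (7.82 against 7.44 to 7.59). For these 6 genes the unadjusted p was 0.0446 to 0.216 and the adjusted p 0.994. Acsl1 had no probe set with its symbol alone.

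The regulators of the pathway were also divided. Of 15 on the list, 14 were measured, with 7 lower and 7 higher in Tg-Sirt1 (median -0.025), and 0 passed the limma test, with 0 at an unadjusted p under 0.05. Ppara, the nuclear receptor that drives many of these genes, read 8.96, 8.63, 8.98 and 9.18, lowest on NTg 2 (log2 fold change 0.285 ± 0.18, SE; adjusted p = 0.994). Of the regulators, 3 of 14 lay at least 0.5 below the pair on Tg-Sirt1 2, as did 3.55% of all genes: the coactivator gene Ppargc1b read 9.62 there against 10.84 to 11.06, the orphan receptor gene Esrra 8.82 against 9.40 to 9.54, and the PPAR partner gene Rxra 8.47 against 8.97 to 9.31. On the same array 1 of 14 lay at least 0.5 above the pair, as did 3.18% of all genes. It was the catalytic AMP-activated kinase subunit gene Prkaa1, at 7.13 against 5.75 to 6.23. The genes named for these 2 counts were picked out after their values were seen.

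**Figure D5:**
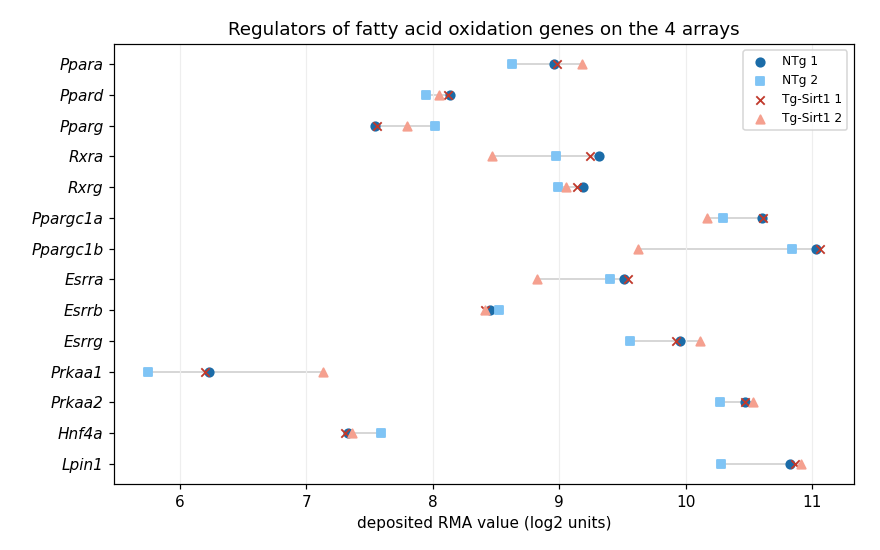
Deposited log2 values of the 14 measured regulators on the 4 arrays. Ppargc1b, Esrra and Rxra lie low on Tg-Sirt1 2 (light triangles), Prkaa1 lies high there, and Ppara is lowest on NTg 2 (squares).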

How the data were processed

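Heart RNA, per the labels of 4 mice, was measured on 4 arrays; whether NTg 1 and Tg-Sirt1 1 are 1 hybridisation under both labels was not settled. The deposited values were log2 expression. Per the submitters' processing notes they come from RMA in Affymetrix Expression Console (no version given). RMA corrects background, quantile normalizes the arrays and summarises probes, which removes changes in total RNA and damps dim differences. Of 45101 probe sets, 64 controls were left out. Gene names came from GEO's platform annotation: 34945 had 1 gene symbol, 932 several and 9160 none here. Of the Entrez identifiers, 34741 matched RefSeq (GRCm38.p6), and 0 symbols changed.

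Tg-Sirt1 was compared with NTg over 18193 genes in limma 3.58.1 (R 4.3.3; lmFit, eBayes; residual df 2, prior df 3.97), with Benjamini-Hochberg adjustment and a threshold of 0.05. The fit was tested on simulated data with independent noise on each array, so this test does not cover the near-identical pair. SD is over the 2 arrays of a label, and the number of arrays limits the precision. Lists of other genes, markers and alternatives, like the members, were chosen with earlier results of these data known. All members are named; of the other fatty acid and regulator lists, the text names the 3 genes of smallest p in each direction, Ppara, and those a count turns on. Comparisons of single arrays and fits that count the near-identical pair once were added after the data were seen.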

Additional observations from a re-analysis of the deposited data

How the results depend on the processing

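No member passed the limma threshold in the fits to all arrays, where the near-identical pair left little room for any call. Between 17 and 24 of the 30 members were lower in Tg-Sirt1 in each alternative (22 of 28 without _x_at and _s_at probe sets, 20 with centring on array medians). Over all genes the share was 37.18% to 50.72%, lowest with centring and highest for means over all probe sets. The median log2 fold change of the members was -0.165 to -0.02 when 1 array was left out, beside 0.005 to 0.03 over all genes. It was -0.169 with the near-identical arrays counted once as Tg-Sirt1, beside 0.015. After a second quantile normalization it was -0.16, beside 0.01, and with centring on array medians -0.075, beside 0.05. The replicate numbers pair the samples only by name. The correlation of deviations between same-numbered arrays across genes was r = 0.21. The near-identical pair carries the same number, so nearly the same values enter both sides and by themselves push this correlation upward. It therefore cannot show whether same-numbered arrays deviated together. With the replicate block the median was -0.11, 23 members were lower, and 0 genes passed, as without it.

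Of the 30 members, 20 changed sign when some array was left out, Acot2 with the largest difference among them. The ranges over the 4 omissions were -0.54 to 0.26 for Echs1, -0.045 to 0.065 for Hadh, -0.29 to 0.33 for Ehhadh, -0.265 to 0.055 for Slc27a1, -0.405 to 0.105 for Cpt2, -0.19 to 0.01 for Eci1, -0.28 to 0.05 for Eci2, -0.105 to 0.065 for Decr1, -0.015 to 0.095 for Etfa and -0.11 to 0.24 for Etfb. They were -0.13 to 0.02 for Etfdh, -0.365 to 0.025 for Acaa1a, -0.92 to 0.09 for Acot2, -0.31 to 0.01 for Fabp3, -0.665 to 0.115 for Crat, -0.085 to 0.015 for Acadl, -0.545 to 0.075 for Acads, -0.2 to 0.07 for Hadha, -0.145 to 0.005 for Hadhb and -0.08 to 0.02 for Acat1. Other settings that turned a sign gave -0.01 for Hadh after a second quantile normalization, 0.005 for Acat1 and 0.015 for Decr1 with centring, and 0.088 for Acadl and 0.078 for Etfdh as means over all probe sets. Counting the near-identical pair once gave 0.045 for Decr1 and -0.058 for Etfb as NTg, and 0.132 for Echs1, -0.048 for Hadh and -0.27 for Ehhadh as Tg-Sirt1. The cause of these changes was not tested beyond the samples or probe sets each fit leaves out.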
